A study of Homo sapiens with 6 samples.

Results

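ADAM, ADAMTS and ADAMTS-like (ADAMTSL) genes encode 3 related groups of cell-surface and secreted proteins. They were read in the RNA of LX-2, a human stellate cell line derived from liver and long established in culture. Members were the rows with an Ensembl identifier, at least 1 Gene Ontology (GO) term and a symbol made of ADAM, ADAMTS or ADAMTSL followed by a number. The rule took 35 genes of the 60780 rows, 15 ADAM, 16 ADAMTS and 4 ADAMTSL. A further 11 genes with such symbols had no GO term in the table and held 0 to 2 counts per library. For 24 h the LX-2 cells received medium from cultures of HCT116, a widely used line of human colorectal carcinoma. The HCT116 cells carried either an empty vector (Vector-CM, n = 3) or overexpressed FGFBP1 (FGFBP1-CM, n = 3), a secreted protein that binds and releases fibroblast growth factors. The comparison asks how the product of the tumor cells alters transcription in stellate cells. No treatment beyond the 2 media was given, every library came from 1 line, and RNA of the tumor cells was not analysed here, so the FGFBP1 level behind each medium has no check in these libraries. The labels do not say whether the replicates were separate cultures, so p-values measure only the spread between these libraries, which may be technical.

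ADAM proteins are membrane-anchored metalloproteinases, and the active ones release growth factors, cytokine receptors and Notch fragments from the cell surface. ADAMTS proteins are secreted, bind the matrix through thrombospondin repeats and cut proteoglycans, procollagens or von Willebrand factor. ADAMTSL proteins share the thrombospondin repeats but lack the protease domain, and several bind fibrillin microfibrils. In injured liver, activated stellate cells are a main source of matrix and of the proteases and inhibitors that turn it over.

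The active site of these proteases holds a zinc ion between 3 histidines, and it is present in ADAMTS genes, in part of the ADAM genes and in no ADAMTSL gene. The coding transcripts of GENCODE release 29 were searched for codons of histidine, glutamate, any 2, histidine, any 2, glycine or asparagine, any 2 and histidine, which makes 33 bases. The site was found in 11 of the 15 ADAM genes, in 16 of the 16 ADAMTS genes and in 0 of the 4 ADAMTSL genes. ADAM11, ADAM22, ADAM23 and ADAM32 had no match. All 11 ADAM sites had glycine as the eighth codon, whereas 12 ADAMTS sites had glycine and 4 had asparagine (ADAMTS1, ADAMTS4, ADAMTS9 and ADAMTS15). The sites below belong to the more abundant ADAM genes other than ADAM9, whose sequence is not reported here, and to ADAMTS genes of both kinds. They are written 5′ to 3′ on the coding strand, with the 3 histidine codons, the glutamate codon and the eighth codon in capitals.
ADAM10: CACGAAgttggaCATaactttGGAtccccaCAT
ADAM17: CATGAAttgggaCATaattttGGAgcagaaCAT
ADAM15: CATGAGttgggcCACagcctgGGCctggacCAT
ADAM19: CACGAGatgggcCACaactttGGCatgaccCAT
ADAM12: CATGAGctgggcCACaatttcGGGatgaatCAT
ADAMTS6: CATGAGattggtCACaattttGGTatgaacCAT
ADAMTS12: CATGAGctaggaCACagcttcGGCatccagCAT
ADAMTS7: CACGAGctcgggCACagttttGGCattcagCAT
ADAMTS16: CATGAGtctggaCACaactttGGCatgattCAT
ADAMTS13: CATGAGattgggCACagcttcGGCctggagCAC
ADAMTS1: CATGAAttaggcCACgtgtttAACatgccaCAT
ADAMTS4: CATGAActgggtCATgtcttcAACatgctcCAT
The ADAM19 site lies in exon 11 at chr5:157505734-157505766 (GRCh38, minus strand), and the ADAM12 site in exon 11 at chr10:126094059-126094091 (minus strand). These 2 sites shared 26 of 33 bases, fewer than ADAM19 shared with ADAM8 (28) or with ADAMTS17 (28). Median identity was 22 bases over the 36 ADAM pairs, the 120 ADAMTS pairs and the 144 pairs of an ADAM with an ADAMTS site. The highest were 30, 30 and 29 bases. The sites of ADAM9 and ADAM28 were left out of these pairs. Since the search itself restricted the histidine, glutamate and eighth codons, part of the identity was set in advance. The medians therefore cannot show whether the subfamilies differ. The ADAMTS6 site is divided between exons 9 and 10, with an intron inside chr5:65300116-65329394 (minus strand), and the ADAMTS4 site between exons 3 and 4 inside chr1:161195613-161196180 (minus strand).

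The GO annotation in the table separated the subfamilies by place in the cell. All 15 ADAM genes and 1 ADAMTS gene, ADAMTS4, were annotated as integral to the membrane. Extracellular matrix was given for 15 of the 16 ADAMTS and all 4 ADAMTSL genes. Metalloendopeptidase activity did not follow the zinc site: it was given for all ADAM and ADAMTS genes, the 4 ADAM genes with no match included, and for 3 of the 4 ADAMTSL genes. Chromosome 5 held 6 members, ADAM19, ADAMTS2, ADAMTS6, ADAMTS12, ADAMTS16 and ADAMTS19, among them the 3 ADAMTS genes with the highest levels.

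The libraries held 14003780 to 18508113 counts, and 3 counts corresponded to 0.162 to 0.214 CPM (counts scaled to a common library size), which covers counting error only. Of 14 stellate cell markers, 12 were above 1 CPM and LRAT was at 0 in every library, with a summed level of 3263 to 3499 CPM in Vector-CM and 2529 to 3058 CPM in FGFBP1-CM. Colorectal epithelial markers summed to 224 to 250 CPM and 214 to 234 CPM, with CEACAM5 and TFF3 at 0 and 4 of 15 above 1 CPM. The 10 hepatocyte markers summed to 41.0 to 44.1 CPM in Vector-CM and 18.2 to 28.0 CPM in FGFBP1-CM, with none at 0 in every library, and 4 of the 6 that were tested fell past the threshold of the test used below (0.0658% of all tested genes did). The endothelial list ranged from 14.1 to 16.2 CPM and from 12.7 to 15.6 CPM, and the macrophage list from 5.28 to 6.25 CPM and from 5.70 to 7.59 CPM. VIM and SPARC made up most of the stellate sum, at 2376 and 442 CPM on average over the 6 libraries. KRT8 and KRT18, at 157 and 60.4 CPM, made up most of the colorectal sum, with EPCAM at 0.535 and CDH1 at 0.347 CPM. The 4 hepatocyte markers that passed, ALB, APOB, AFP and FGA, averaged 2.02, 1.83, 1.89 and 0.496 CPM. SERPINA1, at 25.1 CPM, made up most of the hepatocyte sum and did not pass (edgeR adjusted p = 0.069). Such sums describe these few genes more than a cell type. The part of the markers in the results below was not tested. In bulk RNA, fewer cells of a type and less RNA per cell cannot be told apart.

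Levels between genes were compared as FPKM (fragments scaled by gene length and library depth), given as mean ± SD over the 6 libraries. ADAM9, a broadly expressed sheddase, had the highest level of the family at 29.8 ± 2.26 FPKM (SD, n = 6). ADAM15, which carries an integrin-binding motif, followed at 19.5 ± 0.888 FPKM, and ADAM10, the main sheddase of Notch and of cadherins, at 14.6 ± 1.20 FPKM. ADAM19, also called meltrin beta, was at 10.4 ± 1.30 FPKM and ADAM17, the TNF-alpha converting enzyme, at 7.03 ± 0.327 FPKM. The ranges of these 5 genes over the libraries did not overlap with one another. ADAM12, or meltrin alpha, was at 3.14 FPKM and overlapped in range with ADAM23 at 2.79 FPKM. ADAM22 was at 2.20 FPKM and ADAM11 at 1.43 FPKM, so with ADAM32 the 4 ADAM genes with no zinc site took the 4 places below ADAM12. ADAM32, described mainly in testis, was at 0.637 FPKM, and its range overlapped that of ADAM8, a leukocyte protease, at 0.465 FPKM. ADAM33 was at 0.379 FPKM and ADAM21 at 0.179 FPKM. The level of ADAM9 rests on a gene length of 17704 bases implied by the deposited values. GENCODE release 29 gives it 6913 exon bases, and its level per kilobase, in scaled CPM, was 29.9 with the implied length and 76.6 with the exon length, first in order with both.

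Among secreted proteases, ADAMTS6, a regulator of fibrillin microfibrils, was highest at 17.5 ± 0.875 FPKM (SD, n = 6), above ADAM10. ADAMTS12, which cuts cartilage oligomeric matrix protein, and ADAMTS16 followed at 9.30 ± 0.880 and 9.17 ± 0.838 FPKM, and their ranges overlapped. The order of these 2 genes was inverted when the median replaced the mean. ADAMTS7, the nearest relative of ADAMTS12, was at 3.03 FPKM. The proteoglycan-cutting ADAMTS1 and ADAMTS4 were at 2.67 and 2.42 FPKM, and their ranges overlapped too. The procollagen N-propeptidases ADAMTS2, ADAMTS3 and ADAMTS14 were at 0.940, 0.566 and 0.542 FPKM, and ADAMTS9 and ADAMTS15, further proteoglycanases, at 0.542 and 0.493 FPKM. ADAMTS13, the von Willebrand factor protease that liver stellate cells secrete in vivo, was at 0.331 FPKM, and ADAMTS10 at 0.150 FPKM. ADAMTSL4, a fibrillin-binding protein of the eye's zonule and other microfibrils, was at 3.62 ± 0.825 FPKM and ADAMTSL1 at 1.11 FPKM, with ranges that did not overlap. Over the whole family, 16 of 32 pairs of neighbours in the order within a subfamily had overlapping ranges.

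**Figure D1:**
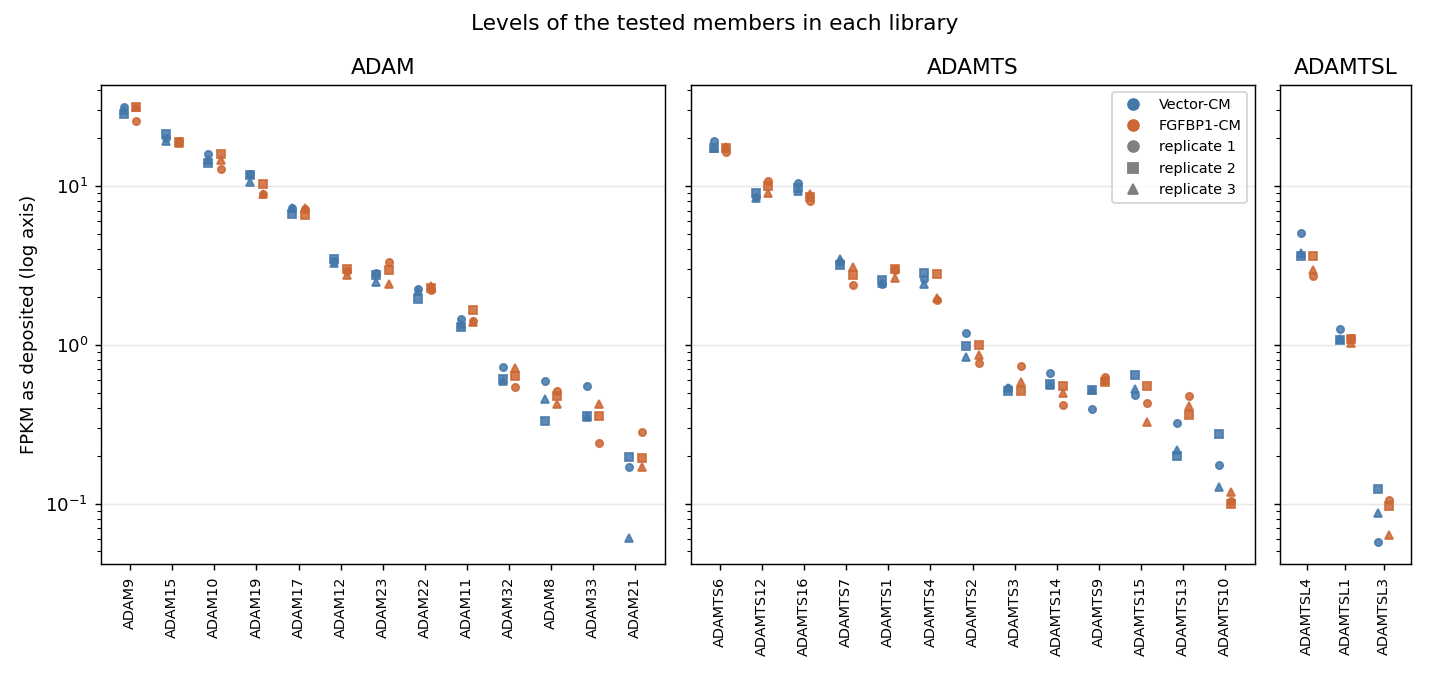
Deposited FPKM (log axis) of the 29 members that passed the filter on low counts, one point per library, blue for Vector-CM and orange for FGFBP1-CM, with the marker shape giving the replicate number. ADAM9 at 29.8 FPKM and ADAMTS6 at 17.5 FPKM lead the ADAM and ADAMTS genes, and the colors overlap for most genes.

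A few genes made up most of each subfamily. ADAM9, ADAM15 and ADAM10 together held 69.0% of the summed FPKM of ADAM genes, ADAMTS6, ADAMTS12 and ADAMTS16 held 75.5% of that of ADAMTS genes, and ADAMTSL4, ADAMTSL1 and ADAMTSL5 held 98.2% of that of ADAMTSL genes. Summed ADAM levels were 94.7 ± 3.27 FPKM in Vector-CM and 90.8 ± 4.94 FPKM in FGFBP1-CM (SD, n = 3 each). The ADAMTS sums were 48.5 ± 1.67 and 47.0 ± 1.05 FPKM, and the ADAMTSL sums 5.56 ± 0.853 and 4.37 ± 0.564 FPKM. Across the 6 libraries ADAM genes took 63.0% to 64.4% of the family total, ADAMTS genes 32.3% to 34.0% and ADAMTSL genes 2.88% to 4.21%. These shares rest on the implied gene lengths, that of ADAM9 included. With GENCODE exon lengths ADAM genes took 71.6% to 73.5%, ADAMTS genes 24.3% to 26.2% and ADAMTSL genes 2.14% to 3.19%.

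Of the 35 members, 6 were below the filter on low counts and were not tested. ADAMTS5, an aggrecanase, had 0 to 4 counts per library, and ADAMTS17 and ADAMTS19 had 0 to 1 count each. ADAM28, known from lymphocytes, had 1 to 2 counts, ADAM20, a testis gene beside ADAM21 on chromosome 14, had 2 to 8, and ADAMTSL5 had 4 to 12. Differences in these genes were not detectable at this depth.

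FGFBP1-CM was compared with Vector-CM by edgeR's quasi-likelihood test over all 16707 genes that passed the filter, with Benjamini-Hochberg adjustment and a threshold of 0.05. No member passed, 0 of 29, beside 20 of all tested genes (0.120%), of which 9 were higher in FGFBP1-CM (0.0539% of those tested) and 11 lower (0.0658%). The lowest adjusted p of a member was 0.068, for ADAM19. DESeq2 called 2 of the 21 members to which it gave an adjusted p, ADAM19 and ADAMTSL4, both lower, beside 585 of 11848 genes (4.94%, with 2.22% lower). Limma on log2 FPKM called 0 members and 1 gene in all. At an unadjusted p under 0.05, 2 members were higher in FGFBP1-CM, where 11.1% of all tested genes were, and 6 were lower, where 10.7% were. In both directions that was 8 of 29 members, set against 21.7% of all tested genes. By CPM alone, all FGFBP1-CM libraries lay above all Vector-CM libraries for 3 members (12.8% of all tested genes) and below them for 9 members (13.2%).

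**Figure D2:**
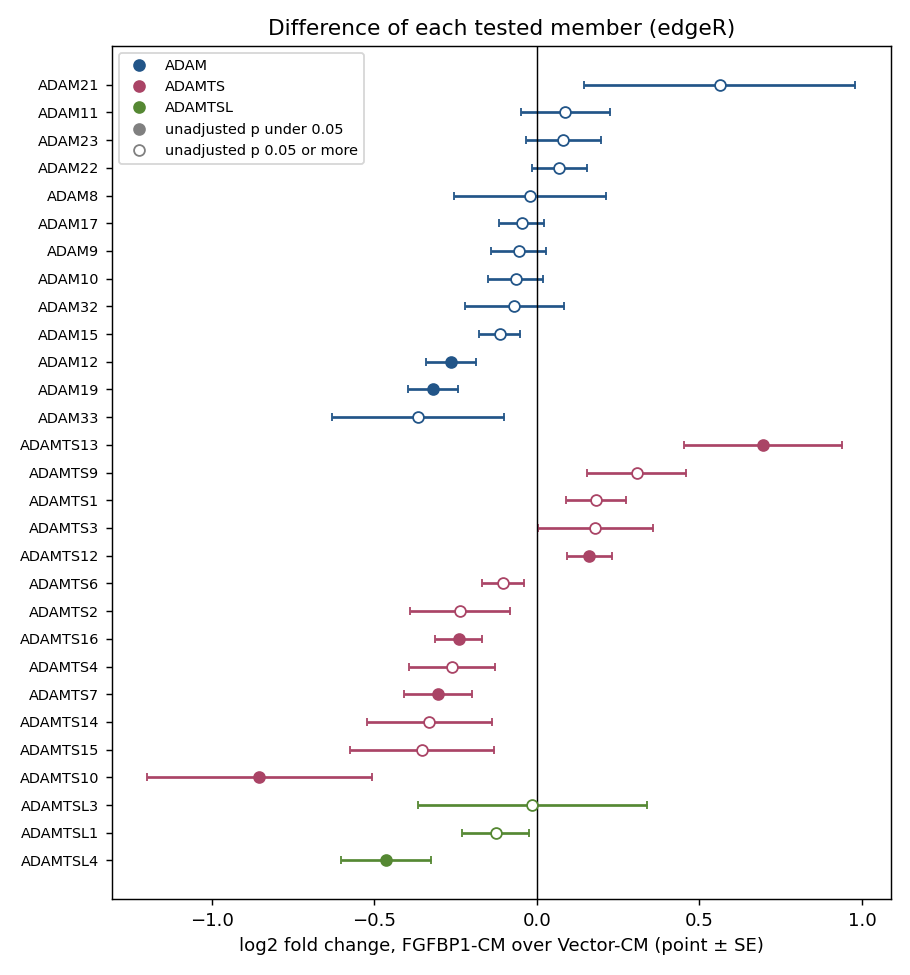
Log2 fold change of FGFBP1-CM over Vector-CM (point) with its standard error (bar) for the 29 tested members by edgeR, colored by subfamily and filled where the unadjusted p was under 0.05. Filled points are 2 on the right, ADAMTS13 and ADAMTS12, and 6 on the left, with ADAMTS10 the farthest at -0.85.

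ADAM19 and ADAM12, meltrin beta and meltrin alpha, had the lowest p among ADAM genes. ADAM19 was at 92.2, 91.5 and 83.9 CPM in Vector-CM and at 67.4, 79.1 and 68.3 CPM in FGFBP1-CM. The groups did not overlap, and the log2 fold change was -0.32 (SE 0.0767, edgeR adjusted p = 0.068). ADAM12, described as a marker of activated stellate cells, was at 33.7, 34.7 and 33.4 CPM and at 28.0, 29.8 and 27.0 CPM. All 3 FGFBP1-CM libraries were again below all 3 Vector-CM libraries, with a log2 fold change of -0.26 (SE 0.0765, edgeR adjusted p = 0.092). ADAM19 passed the threshold in 4 of 17 alternative settings, with adjusted p from 0.0066 to 0.241, and ADAM12 in none, with adjusted p from 0.058 to 0.266.

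The sheddases with the highest levels had small differences. ADAM9 was at 559, 513 and 547 CPM in Vector-CM and at 446, 560 and 551 CPM in FGFBP1-CM. FGFBP1-CM replicate 1 was the lowest library and the other 2 lay within or above the Vector-CM range (log2 fold change -0.06, SE 0.0843, edgeR adjusted p = 0.739). ADAM10 was at 255, 225 and 239 CPM and at 200, 256 and 232 CPM, with FGFBP1-CM replicate 1 again the lowest (log2 fold change -0.07, SE 0.0854, edgeR adjusted p = 0.695). Without that library both values were above 0, at 0.04 for ADAM9 and 0.02 for ADAM10. ADAM15 was at 132, 141 and 129 CPM and at 123, 126 and 123 CPM, lower in each FGFBP1-CM library by a small amount (log2 fold change -0.11, SE 0.0622, edgeR adjusted p = 0.302). ADAM17 had a log2 fold change of -0.05 with overlapping groups, and 1465 bases of its exons overlap genes that include IAH1 on the opposite strand, whose reads cannot be told apart without stated strand. ADAM33, ADAM21 and ADAM8, at 2.22, 0.581 and 2.22 CPM on average, had log2 fold changes of -0.37 (SE 0.264, edgeR adjusted p = 0.444), 0.56 and -0.02, with overlapping groups in each.

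The ADAM genes with no zinc site, of which ADAM11, ADAM22 and ADAM23 encode adhesion receptors for LGI proteins of the nervous system, all had overlapping groups. Their log2 fold changes were 0.09 for ADAM11, 0.07 for ADAM22, 0.08 for ADAM23 and -0.07 for ADAM32. The median was 0.07 over these 4 genes and -0.07 over the 9 tested ADAM genes with the site, a difference that was not tested. With GC content and length corrected the medians were 0.01 and -0.13. Each of the 4 genes changed sign in at least 1 setting: ADAM11 without FGFBP1-CM replicate 2 (-0.01), ADAM22 with GC correction (-0.01), ADAM23 without FGFBP1-CM replicate 1 (-0.02), and ADAM32 without Vector-CM replicate 1 (0.03) or FGFBP1-CM replicate 1 (0.04).

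Among proteases that act on fibrillin microfibrils, ADAMTS6 was at 164, 150 and 153 CPM in Vector-CM and at 137, 149 and 149 CPM in FGFBP1-CM. In CPM its groups were separated by a narrow gap, with a log2 fold change of -0.10 (SE 0.0655, edgeR adjusted p = 0.374). In the deposited FPKM they overlapped, with Vector-CM replicate 2 at 17.34 and FGFBP1-CM replicate 3 at 17.50. ADAMTS10 had 18, 22 and 11 counts in Vector-CM and 11, 9 and 11 counts in FGFBP1-CM. Scaled for depth these were 1.00, 1.59 and 0.741 CPM against 0.580, 0.565 and 0.673 CPM, with no overlap and a log2 fold change of -0.85 (SE 0.345, edgeR adjusted p = 0.178). At 9 to 22 counts per library, the value of ADAMTS10 is among the least precise of the family.

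ADAMTS7 and ADAMTS12, the pair known for cutting cartilage oligomeric matrix protein, had values on opposite sides of 0. ADAMTS7 was at 26.0, 24.9 and 27.4 CPM in Vector-CM and at 18.1, 21.5 and 23.9 CPM in FGFBP1-CM, without overlap (log2 fold change -0.30, SE 0.104, edgeR adjusted p = 0.128). ADAMTS12 was at 82.8, 87.4 and 83.3 CPM and at 100.5, 96.3 and 86.6 CPM. FGFBP1-CM replicate 3 lay below Vector-CM replicate 2, so the groups overlapped (log2 fold change 0.16, SE 0.0704, edgeR adjusted p = 0.203). ADAMTS16, a neighbour of ADAMTS12 in level, was at 61.2, 57.9 and 56.1 CPM and at 46.4, 49.9 and 52.2 CPM. It was lower in every FGFBP1-CM library, with a log2 fold change of -0.24 (SE 0.0723, edgeR adjusted p = 0.0976). The difference between ADAMTS12 and ADAMTS16 in response was not tested.

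ADAMTS13, the von Willebrand factor protease, had the highest log2 fold change of the family, 0.70 (SE 0.243, edgeR adjusted p = 0.133). Its counts were 33, 16 and 19 in Vector-CM and 50, 33 and 38 in FGFBP1-CM, or 1.84, 1.16 and 1.28 CPM against 2.64, 2.07 and 2.32 CPM. The groups did not overlap, at a level near 2 CPM. VWF, its substrate, belongs to the endothelial markers whose sums are given above.

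The 4 tested proteoglycanases have asparagine at the eighth codon of the site, unlike the untested ADAMTS5 with glycine, and had values in both directions. ADAMTS1 was at 17.8, 18.9 and 18.3 CPM in Vector-CM and at 21.2, 22.0 and 19.1 CPM in FGFBP1-CM, without overlap (log2 fold change 0.18, edgeR adjusted p = 0.273). ADAMTS9 was also without overlap, with 4.24, 5.64 and 5.73 CPM against 6.54, 6.28 and 6.36 CPM (log2 fold change 0.31, edgeR adjusted p = 0.26). ADAMTS4 was at 26.8, 29.7 and 25.7 CPM and at 19.47, 28.996 and 20.25 CPM, so FGFBP1-CM replicate 2 lay among the Vector-CM libraries and the other 2 below them. Its log2 fold change was -0.26 (edgeR adjusted p = 0.271), and without that library it was -0.46 (adjusted p = 0.0278, within a range of 0.0278 to 0.59 over all settings). ADAMTS15 had a log2 fold change of -0.35 with overlapping groups. The procollagen N-propeptidases had log2 fold changes of -0.24 for ADAMTS2, -0.33 for ADAMTS14 and 0.18 for ADAMTS3, and only those of ADAMTS14 did not overlap between groups.

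ADAMTSL4 had the lowest p of the ADAMTSL genes. It was at 32.7, 23.5 and 24.9 CPM in Vector-CM and at 16.9, 23.5 and 18.9 CPM in FGFBP1-CM. The second library of each group nearly met, and the log2 fold change was -0.46 (SE 0.138, edgeR adjusted p = 0.0968). In the deposited FPKM these 2 libraries overlapped, at 3.61 in Vector-CM and 3.64 in FGFBP1-CM. ADAMTSL4 passed the threshold in 3 of 17 alternative settings, with adjusted p from 0.00124 to 0.3. Its exons overlap genes on the opposite strand, ADAMTSL4-AS1 among them, by 925 bases. ADAMTSL1 and ADAMTSL3, both with overlapping groups, had log2 fold changes of -0.13 (SE 0.103, edgeR adjusted p = 0.501) and -0.01 (SE 0.353, edgeR adjusted p = 0.988).

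**Figure D3:**
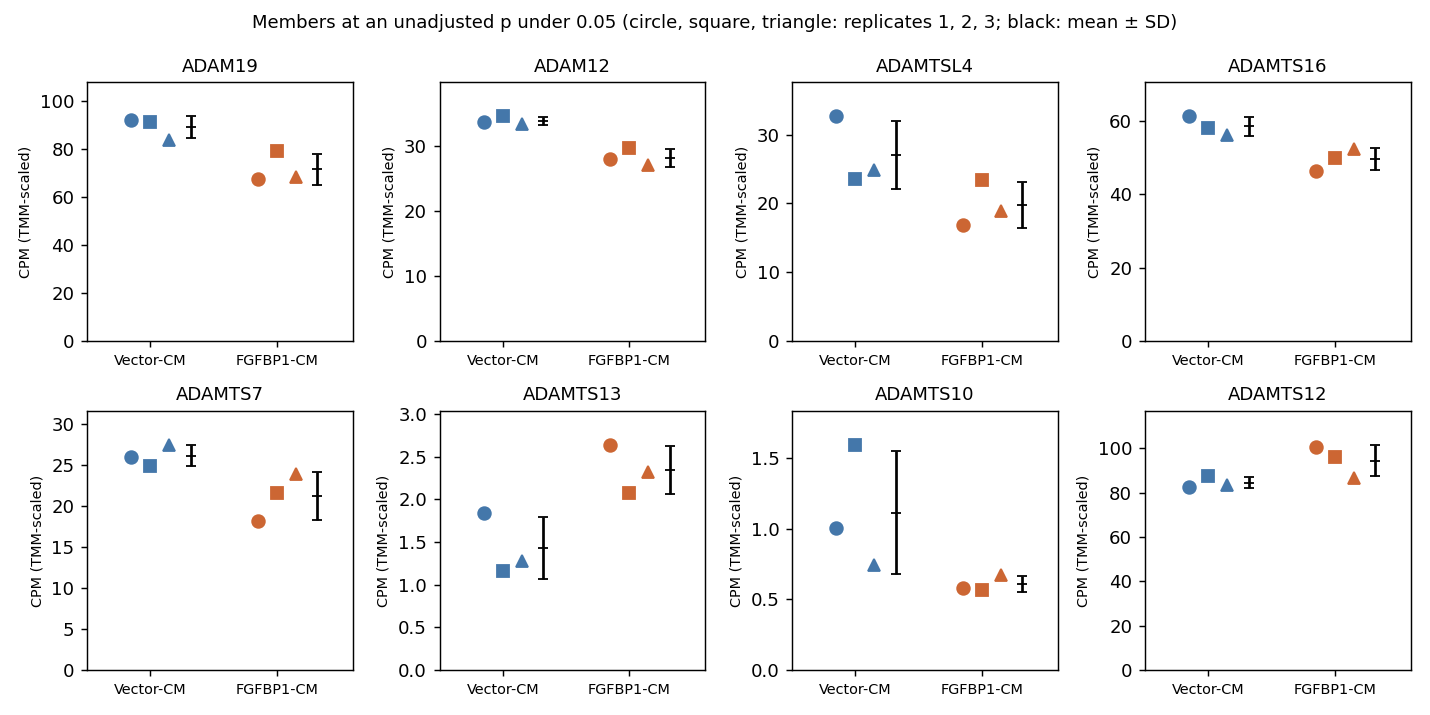
CPM in each library of the 8 members at an unadjusted p under 0.05, with circles, squares and triangles for replicates 1, 2 and 3 and black bars for the mean ± SD of 3 libraries, each axis starting at 0. In CPM the groups do not overlap in any panel but that of ADAMTS12, though those of ADAMTSL4 nearly meet, at 23.51 and 23.47 CPM. The panels of ADAMTS13 and ADAMTS10 lie below 3 CPM.

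By subfamily, 4 tested ADAM genes had log2 fold changes above 0 and 9 below, with a median of -0.06. The ADAMTS genes had 5 above and 8 below with a median of -0.24, and the ADAMTSL genes 0 and 3 with a median of -0.13. For each library, the median deviation in log2 CPM from the Vector-CM mean was also taken over each subfamily. Its SD between replicates, pooled within groups, was 0.080, 0.117 and 0.117, which is the spread of single libraries and not of the medians above. With no filter on low counts the ADAMTS median was above 0, at 0.04, over a set that also held the untested ADAMTS genes. These were ADAMTS5, ADAMTS17 and ADAMTS19, with 0 to 4 counts per library and log2 fold changes of 0.18, 0.69 and 3.12. With limma on log2(FPKM + 1), over the tested genes, the ADAMTS median was -0.09. Over all tested genes 8472 were above 0 and 8235 below, with a median of 0.0032. Median exon GC content also differed, at 44.2% for ADAM, 52.9% for ADAMTS and 58.5% for ADAMTSL genes, and across all tested genes the log2 fold change had a Spearman correlation of -0.206 with GC content, as a description of these 6 libraries. With GC content and length corrected, the log2 fold change was -0.13 for ADAM9, -0.16 for ADAM10, -0.12 for ADAM17, -0.04 for ADAM15 and -0.16 for ADAMTS6, each more than 1.5 times from its value above. The same held for ADAM11 (0.15), ADAM23 (0.04), ADAM32 (-0.14) and ADAMTSL3 (-0.05), and the sign turned for ADAM22 (-0.01) and ADAM8 (0.04). The corrected medians were -0.12 for ADAM, -0.21 for ADAMTS and -0.13 for ADAMTSL genes, so that of ADAM genes lay near that of ADAMTSL genes.

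FGFBP1-CM replicate 2 was the library that most altered calls among the members. Without it, ADAM19 (log2 fold change -0.40, adjusted p = 0.0175), ADAMTSL4 (log2 fold change -0.60, adjusted p = 0.0347) and ADAMTS4 passed edgeR's threshold, and 860 of all tested genes did. That fit kept FGFBP1-CM replicate 1, whose counts differed most from the others of its group. Chi-square per degree of freedom was 10.3 and 9.50 for its pairs, against 4.81 between replicates 2 and 3. With replicate 1 left out instead, 0 members and 62 genes passed.

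**Figure D4:**
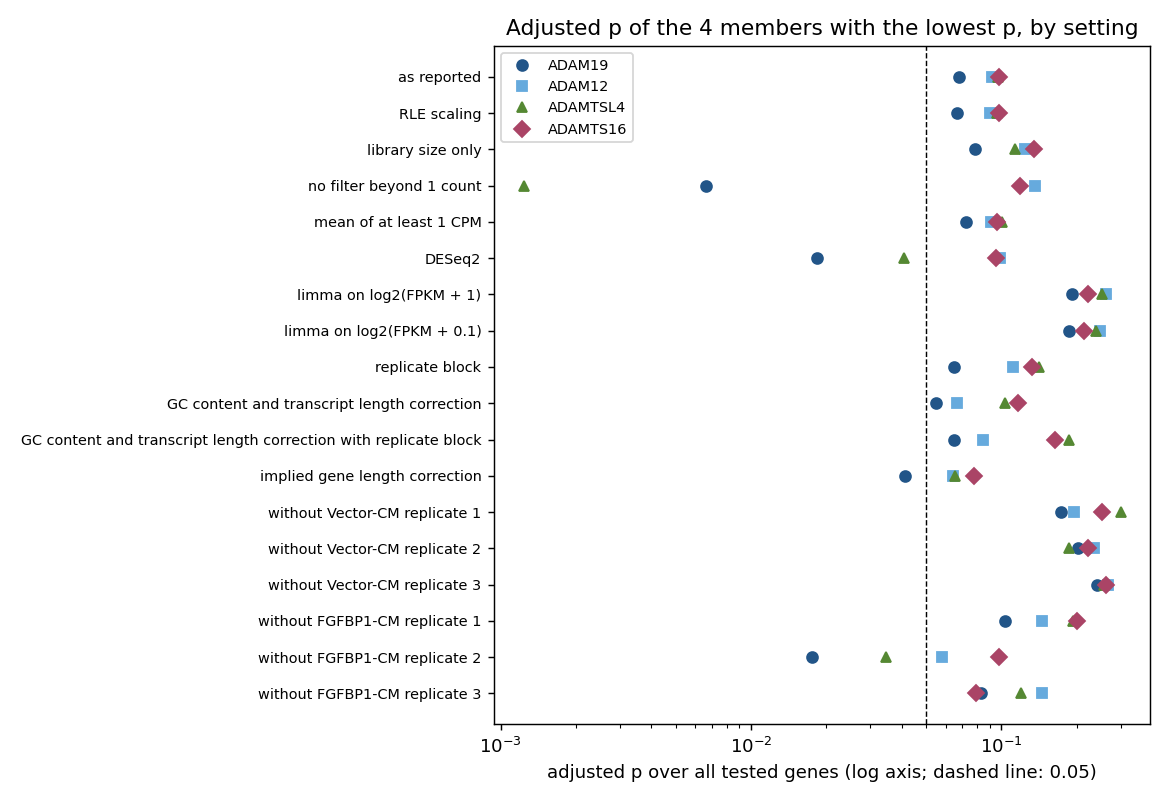
Adjusted p (log axis, dashed line at 0.05) of ADAM19, ADAM12, ADAMTSL4 and ADAMTS16 as reported and in 17 alternative settings. ADAM19 lies left of the line in 4 settings and ADAMTSL4 in 3, while ADAM12 and ADAMTS16 stay on its right in all.

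Genes that control these proteases were read from a list of 23 inhibitors, maturation partners and processing enzymes, of which 21 were tested. One of them passed, in the lower direction, beside 0.0658% of all tested genes. TIMP1, an inhibitor of metalloproteinases that acts on ADAM10, fell from 320, 352 and 332 CPM in Vector-CM to 253, 258 and 262 CPM in FGFBP1-CM (log2 fold change -0.38, SE 0.0623, edgeR adjusted p = 0.0465). All FGFBP1-CM libraries lay below all Vector-CM libraries, and the call was kept in 9 of 17 settings, with adjusted p from 6.32e-05 to 0.241. Among the settings that lost it were those without Vector-CM replicate 1 (adjusted p = 0.0787), replicate 2 (adjusted p = 0.187) or replicate 3 (adjusted p = 0.241). The correction for GC content and length was another (log2 fold change -0.32, edgeR adjusted p = 0.0501). RHBDF1, an iRhom that carries ADAM17 to the surface, was next, with a log2 fold change of -0.42 (edgeR adjusted p = 0.0634). It passed in 4 of 17 settings, with adjusted p from 5.14e-05 to 0.244. RHBDF2, another iRhom, was at -0.14 (edgeR adjusted p = 0.432), and their partner FRMD8 at 0.19 (edgeR adjusted p = 0.322), both with overlapping groups. The median over the list was -0.09, with 1 gene higher and 7 lower at an unadjusted p under 0.05, where 11.1% and 10.7% of all tested genes were. DESeq2 called 4 of the 19 regulators with an adjusted p, TIMP1, RHBDF1, TIMP3 and TIMP2, all lower (2.22% of genes).

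Substrates were read in the same way. Of 44 cell-surface proteins shed by ADAM proteases, 34 were tested and 0 passed, with a median log2 fold change of -0.11. At an unadjusted p under 0.05, 1 was higher (11.1% of all tested genes) and 10 were lower (10.7%). The lowest p belonged to TNFRSF1B, a receptor for TNF (log2 fold change -0.32, edgeR adjusted p = 0.0568), and L1CAM, an adhesion protein (log2 fold change -0.46, edgeR adjusted p = 0.0619). Of 23 ADAMTS substrates and matrix proteins, 17 were tested and 0 passed, with a median of -0.28. At an unadjusted p under 0.05, 0 were higher (11.1% of all tested genes) and 7 were lower (10.7%). COL5A1, a chain of fibrillar collagen V (log2 fold change -0.60, edgeR adjusted p = 0.0557), and LOX, which cross-links collagen (log2 fold change -0.53, edgeR adjusted p = 0.0566), were closest to the threshold. DESeq2 called 4 of 28 shed proteins with an adjusted p, L1CAM, TNFRSF1B, PTPRF and ICAM1, and 4 of 14 matrix genes, COL5A1, LOX, THBS2 and TFPI2, all lower, beside 2.22% of genes called lower. Over the 17 settings the adjusted p ranged from 0.0091 to 0.241 for TNFRSF1B, from 2.42e-07 to 0.241 for L1CAM, from 1.76e-12 to 0.241 for COL5A1 and from 1.59e-08 to 0.241 for LOX.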

How the data were processed

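RNA-seq of 6 LX-2 libraries (3 per group, grouped by their titles) was analysed. The authors aligned reads with Hisat2 and deposited raw counts per gene from featureCounts, and FPKM values beside them. The submitters' processing notes list HISAT2 2.0.5, featureCounts 1.5.0-p3, DESeq2 1.16.1, edgeR and hg18, with no role given for the build. The annotation release and the strand setting are not given in the sources used here, and both poly(A) selection and ribosomal RNA depletion are described, so reads of overlapping genes could go to either gene. Coordinates and sequences are those of GENCODE release 29 (GRCh38), in which 96.3% of identifiers were found. The authors' own fold changes and p-values were not used.

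Counts were filtered (filterByExpr), TMM-scaled and tested with edgeR 4.0.16 in R 4.3.3, without covariates. DESeq2 1.42.0 and limma 3.58.1, on log2(FPKM + 1) and log2(FPKM + 0.1), other scalings and filters, corrections for GC content and length, a replicate block and leaving out each library were alternatives, 17 in all. On simulated data with 200 of 16707 genes changed 2-fold, edgeR recovered 82.9% over 10 draws. The false share was 7.65%, above the threshold of 0.05. Every tested member differed by less than 2-fold (log2 fold change -0.85 to 0.70), so this recovery does not measure how well changes of their size are found. Counts of replicates differed by more than sampling noise (chi-square per degree of freedom 2.81 to 10.3). The genes described in full are any past an adjusted p of 0.05, the 4 with the lowest p and the 3 with the highest FPKM in each subfamily. From each related list they are those past the threshold and the 2 with the lowest p. Other members are given by level or log2 fold change, and the sample values of ADAMTS1, ADAMTS9 and ADAMTS4 are shown in addition, chosen after their values were seen. The members and lists were chosen with earlier results of these data known.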

Additional observations from a re-analysis of the deposited data

How the results depend on the processing

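The 20 genes past the threshold in edgeR became 38 with RLE scaling (24 higher, 14 lower, against 9 and 11), 1382 with no filter beyond 1 count, 11 at a mean of at least 1 CPM, 585 with DESeq2, 1 with limma at either pseudocount, 48 with GC content and length corrected, 281 with the implied gene length corrected and 4 to 860 with 1 library left out. Members past it numbered 2 with no filter, 2 with DESeq2, 1 with the implied length and 0 to 3 with 1 library left out. Members higher at an unadjusted p under 0.05 numbered 4 with library size only, 1 with DESeq2, 1 with either GC correction, 1 with the implied length and 1 to 3 with 1 library left out. Members lower numbered 4 to 8 over all settings, 8 with either GC correction and 5 to 7 with 1 library left out. The median of all genes was 0.037 with library size only, 0.018 with no filter, 0.024 and 0.035 with limma, -0.011 with GC correction, -0.012 with GC correction and block, -0.0088 with the implied length and -0.0041 to 0.0092 with 1 library left out. The ADAMTS median was 0.041 with no filter, -0.092 with limma at the larger pseudocount and -0.27 to -0.093 with 1 library left out. The ADAMTSL median was -0.28 with no filter, -0.29 at 1 CPM and -0.29 to -0.099 with 1 library left out. With no filter these sets also held ADAMTS5, ADAMTS17, ADAMTS19 and ADAMTSL5 (log2 fold change -0.70), and at 1 CPM the ADAMTSL set lost ADAMTSL3. ADAMTS12 moved to rank 3 and ADAMTS16 to rank 2 by the median over libraries and by GENCODE exon length, the latter chosen after seeing the data. By exon length the ADAM, ADAMTS and ADAMTSL genes held 72.6%, 24.9% and 2.56% of the family total on average, in place of 63.8%, 32.8% and 3.40%. ADAMTSL3 turned to 0.021 with library size only, 0.28 without Vector-CM replicate 2 and 0.17 without FGFBP1-CM replicate 3, and with 1 library left out ADAM9 ranged from -0.11 to 0.042 and ADAM10 from -0.15 to 0.025, both above 0 without FGFBP1-CM replicate 1. ADAM8 turned to 0.013 with library size only, 0.013 and 0.050 with limma, 0.044 with GC correction and 0.061 with GC correction and block, and ADAM22 to -0.011 with either GC correction. With 1 library left out ADAM8 ranged from -0.20 to 0.22, ADAM11 from -0.0053 to 0.14, ADAM23 from -0.023 to 0.19 and ADAM32 from -0.17 to 0.041. The causes were not tested. Refitted values were tallied over the 29 tested members and TIMP1, RHBDF1, TNFRSF1B, L1CAM, COL5A1 and LOX. Of these values 519 kept their direction and their side of the threshold, and 18 changed sign. Another 39 newly passed the threshold, most of them from the list genes, and 8, all of TIMP1, lost it.

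Same-numbered libraries of the groups deviated with correlations of -0.137, -0.0178 and 0.161, so the numbers were not taken as pairs. With the replicate block, edgeR called 90 genes and 0 members, and with GC correction and block 88 genes. At these depths, members under about 20 counts per library carry the least precise values.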
